A study of Mus musculus with 12 samples.

Results

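The 10 genes described here are 6 genes that mark or equip neutrophils (S100a8, S100a9, Csf3r, Cxcr2, Ly6g and Retnlg) and 4 genes for chemokines that act on CXCR2 (Cxcl1, Cxcl2, Cxcl3 and Cxcl5). They were taken by symbol from the 78298 genes of a count table of mouse lung RNA, and all 10 passed the filter on low counts that left 22190 genes. They were chosen by name with their tumour-normal changes and levels per library in these data already known, so those levels and p-values describe these libraries and are no independent support for a direction.

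The table holds 12 libraries in 4 groups of 3: normal lung under VEH, normal lung under HDM, tumour under VEH and tumour under HDM. HDM stands for house dust mite in the series title, tumours are called LLC tumours, and VEH and LLC are used here as the labels give them. All groups are lung of the mouse, cut out by hand under a microscope and frozen, the normal pieces from next to tumours, so every normal library comes from lung that also held a tumour. Strain, age, sex, dose and length of treatment are not given in the sources used here, and nothing says that the 3 libraries of a group came from separate mice, so p-values measure only the spread between these samples.

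Neutrophils are short-lived white blood cells that leave the bone marrow under the growth factor G-CSF and enter tissue along gradients of chemokines bound by the receptor CXCR2. In the lung they gather in large numbers in the capillaries and airspaces when the epithelium or resident macrophages release CXCL1, CXCL2, CXCL3 or CXCL5. S100A8 and S100A9 form calprotectin, the main protein of the neutrophil cytosol, and the RNA for both is among the most abundant in these cells.

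The promoters of the ligands are shown because they hold a sequence that the promoters of the neutrophil genes did not. In the 250 bases before the start of the canonical transcript (Ensembl canonical in GENCODE M39, GRCm39 build), the NF-kB motif of 10 bases, searched on both strands with any base allowed at its position 5, was found in 4 of 4 ligands and in 0 of 6 neutrophil genes. Of 21770 promoters of protein-coding genes of the same length, 92 (0.42%) held it. The match was the same in all 4 ligands, and only 22 promoters (0.101%) held that exact match on either strand. Capitals mark the match in the lines below, which run 5′ to 3′ on the + strand and end at the base before the annotated start of the gene.
Cxcl1, chr5:91038944-91039093: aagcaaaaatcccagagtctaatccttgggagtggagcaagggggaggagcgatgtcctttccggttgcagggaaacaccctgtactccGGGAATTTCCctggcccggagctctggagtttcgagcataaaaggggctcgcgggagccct
Cxcl2, chr5:91051580-91051729: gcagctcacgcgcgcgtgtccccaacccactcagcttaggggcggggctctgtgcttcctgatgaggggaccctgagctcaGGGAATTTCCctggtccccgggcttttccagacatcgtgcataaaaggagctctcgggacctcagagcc
Cxcl3, chr5:90933812-90933961: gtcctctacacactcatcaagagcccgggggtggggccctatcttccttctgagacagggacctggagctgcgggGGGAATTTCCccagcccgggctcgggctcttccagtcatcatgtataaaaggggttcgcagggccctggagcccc
Cxcl5, chr5:90907087-90907185: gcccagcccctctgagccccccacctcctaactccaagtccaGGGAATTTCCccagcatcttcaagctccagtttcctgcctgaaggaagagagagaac

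The match lay 61 to 52 bases before the start in Cxcl1, 69 to 60 in Cxcl2, 75 to 66 in Cxcl3 and 108 to 99 in Cxcl5. The last 51 bases before the canonical start of Cxcl5 are left out because another transcript already covers them. The C/EBP motif TTGCNNAA, held by 9.34% of promoters, was found in S100a9, Ly6g and Cxcl5, and the PU.1 motif GAGGAA, held by 22.92%, in S100a8, Cxcr2 and Ly6g. These matches describe letters in a window, not binding.

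The genes lie in few places. S100a8 (3: 90567118 to 90578128) and S100a9 (3: 90599931 to 90603071) are neighbours on chromosome 3, and the 4 ligands lie together on chromosome 5, from Cxcl5 (90907186 to 90909483) through Cxcl3 (90933962 to 90937459) and Cxcl1 (91039094 to 91040974) to Cxcl2 (91051730 to 91053797). Csf3r is on chromosome 4 (125918262 to 125938236), Cxcr2 on 1 (74193150 to 74200405), Ly6g on 15 (75027089 to 75030982) and Retnlg on 16 (48692547 to 48694862). All are protein-coding in GENCODE M39. Cxcl5 overlaps Gm72413, a long non-coding gene on the other strand with 789 counts against 1592 for Cxcl5, and since the strand setting of the counting is not given, the level of Cxcl5 is uncertain. Csf3r overlaps Gm32908, which had 44 counts against 6179.

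Total counts per library ran from 20608682 to 32765364. The 11 epithelial marker genes summed to between 59530 and 117700 CPM (counts over the TMM-scaled size of the library, brought to 1 size for all) in the 6 normal libraries and to between 40.5 and 26300 in the 6 tumours, and 6 cell cycle genes to between 27.8 and 166 in normal lung and between 513 and 1034 in tumours. Normal VEH replicate 2 stood apart: its cell cycle sum was 166 CPM, where the other normal libraries had 27.8 to 43.1. Library names join each normal library with 1 tumour library, and in 2 of the 6 joined pairs the treatment labels differ, which touches 4 libraries: replicate 2 of normal VEH is joined to replicate 2 of tumour HDM, and replicate 3 of normal HDM to replicate 3 of tumour VEH. Groups follow the sample titles throughout.

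S100a8 encodes the smaller calprotectin subunit. Levels are given for replicates 1, 2 and 3 in that order: S100a8 had 9.08, 248 and 5.64 CPM in normal VEH and 163, 23.3 and 5.34 in normal HDM. In tumours it was at 2.97, 1.86 and 2.86 CPM under VEH and at 5.38, 17.8 and 2.61 under HDM. The level in normal lung was thus set by normal VEH replicate 2 and normal HDM replicate 1, while the VEH tumours were low and close together, below every normal library.

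S100a9, its partner subunit, was high in the same pair of normal libraries. It was at 21.4, 356 and 7.07 CPM in normal VEH, at 225, 33.5 and 9.39 in normal HDM, at 4.50, 2.75 and 6.46 in tumour VEH and at 8.09, 24.6 and 3.58 in tumour HDM. The VEH tumours again lay below all normal libraries, and tumour HDM replicate 2 was the highest tumour.

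Cxcr2, the receptor for the 4 ligands, was at 2.55, 44.7 and 0.842 CPM in normal VEH and at 49.7, 7.25 and 1.18 in normal HDM. In tumours it was at 0.765, 0.595 and 1.29 CPM under VEH and at 2.79, 3.35 and 1.64 under HDM. The same pair of normal libraries was high, normal HDM replicate 2 was also above every tumour, and the other 3 normal libraries lay within the range of the tumours.

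Csf3r, the receptor for G-CSF, was at 3.94, 77.5 and 3.37 CPM in normal VEH and at 71.0, 9.29 and 6.48 in normal HDM. Tumours had 8.41, 3.87 and 6.83 CPM under VEH and 11.1, 15.2 and 6.73 under HDM. Outside the high pair, normal lung and tumours of both treatments overlapped.

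Retnlg, a resistin-like secreted protein of mouse granulocytes, was at 3.53, 71.0 and 1.52 CPM in normal VEH, at 47.3, 5.97 and 2.80 in normal HDM, at 0.510, 1.79 and 1.94 in tumour VEH and at 0.739, 4.17 and 0.425 in tumour HDM. Ly6g, the surface protein by which mouse neutrophils are recognised, was near its limit of detection. It reached 2.71 CPM in normal VEH replicate 2 and 1.64 in normal HDM replicate 1, stayed at or below 0.382 in the other 10 libraries, and had 0 counts in normal VEH replicate 1, where 3 counts would be 0.123 CPM (counting error only).

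Per length (RPKM, the CPM per kilobase of the deposited gene length), S100a9 had the highest mean level of the 10 genes in each of the 4 groups, and S100a8 the next. In normal VEH the means were 245 ± 378 RPKM for S100a9, 126 ± 200 for S100a8, 42.7 ± 66.7 for Retnlg, 7.83 ± 11.8 for Csf3r, 5.26 ± 8.16 for Cxcr2 and 1.02 ± 1.61 for Ly6g (SD, n = 3). Every SD was larger than its mean, so the means of neighbours in this order lay within the spread between libraries, but S100a9 was above S100a8 in each of the 12 libraries. In tumour HDM, Cxcl1 at 5.86 ± 2.99 RPKM came after S100a9 (23.2 ± 21.2) and S100a8 (12.4 ± 11.7) and before Csf3r (3.04 ± 1.17, SD, n = 3).

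Normal VEH replicate 2 and normal HDM replicate 1 together held 85.3% of all S100a8 counts of the 12 libraries. The shares were 84.1% for S100a9, 84.8% for Retnlg, 81.8% for Cxcr2, 70.4% for Ly6g and 67.9% for Csf3r. For the ligands they were lower, from 13.1% for Cxcl3 to 54.8% for Cxcl5.

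**Figure D1:**
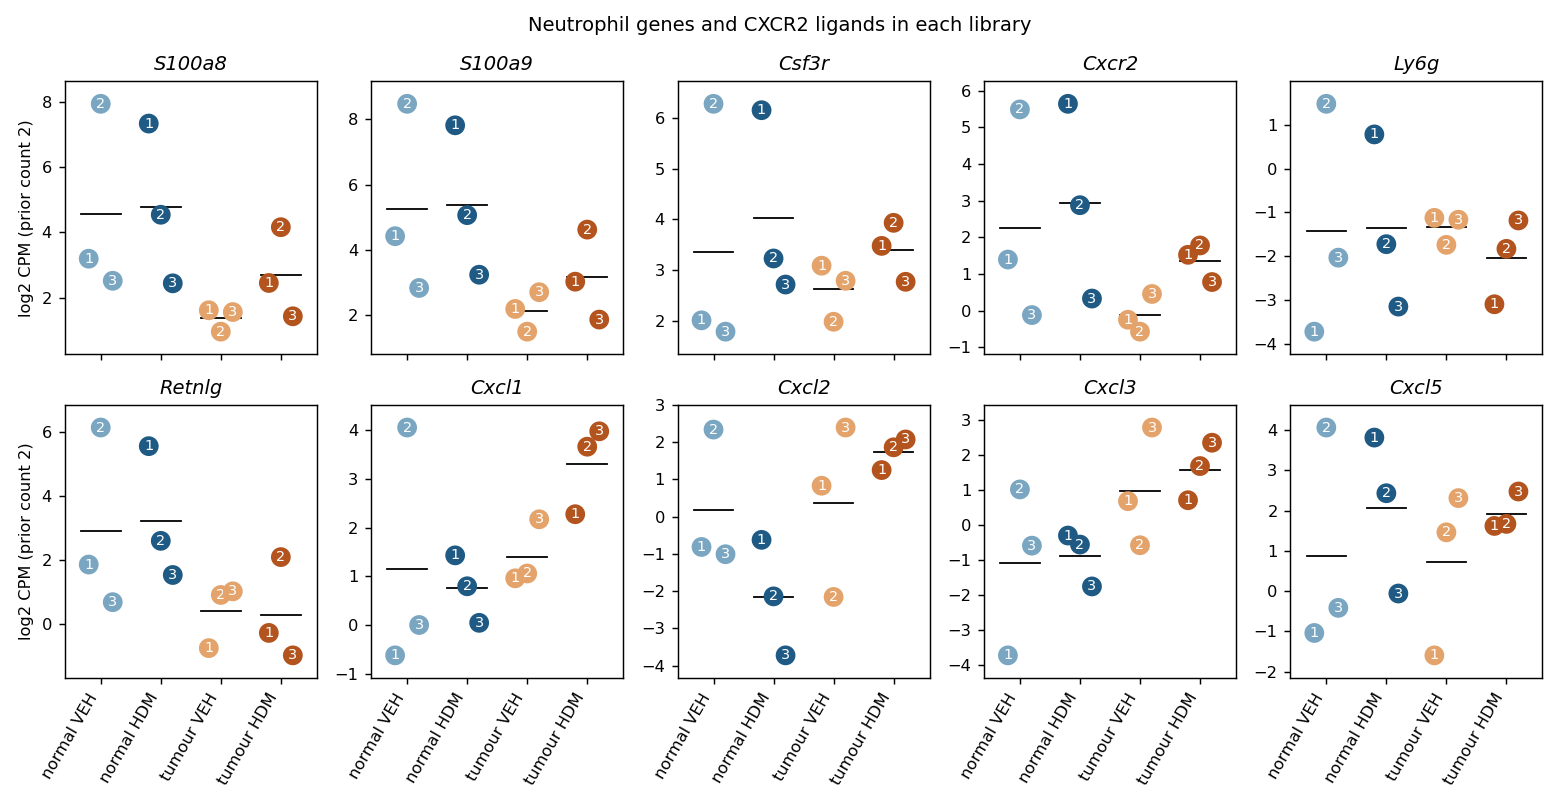
Level of each of the 10 genes in each library as log2 CPM (prior count 2), with the replicate number in each point and a bar at the group mean. In the 6 neutrophil genes normal VEH replicate 2 and normal HDM replicate 1 stand above the other libraries, and for Cxcl1 the 3 tumour HDM libraries lie above the 3 normal HDM libraries.

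The ligands had another pattern. Cxcl1, a chemokine that epithelium, fibroblasts and macrophages release, was at 0.575, 16.5 and 0.926 CPM in normal VEH and at 2.62, 1.66 and 0.958 in normal HDM. Tumours had 1.87, 2.01 and 4.43 CPM under VEH and 4.76, 12.6 and 15.7 under HDM. All tumour HDM libraries lay above all normal HDM and all tumour VEH libraries, and normal VEH replicate 2 was the highest of the 12.

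Cxcl2, released mainly by macrophages and by neutrophils themselves, was at 0.493, 4.97 and 0.421 CPM in normal VEH, at 0.573, 0.151 and 0 in normal HDM, at 1.70, 0.149 and 5.17 in tumour VEH and at 2.30, 3.55 and 4.12 in tumour HDM. The 0 in normal HDM replicate 3 allows up to 0.110 CPM (3 counts, counting error only). Tumour HDM lay above normal HDM without overlap, whereas tumour VEH spread over the whole range.

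Cxcl3, the closest relative of Cxcl2 in this cluster, was at 0, 1.95 and 0.589 CPM in normal VEH, at 0.737, 0.604 and 0.221 in normal HDM, at 1.53, 0.595 and 6.83 in tumour VEH and at 1.56, 3.14 and 5.03 in tumour HDM. Its 0 in normal VEH replicate 1 allows up to 0.123 CPM. Tumour HDM was again above normal HDM without overlap.

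Cxcl5, which lung epithelium releases, went with the neutrophil genes in normal lung more closely by Pearson r than the other ligands, which also did. It was at 0.411, 16.7 and 0.674 CPM in normal VEH, at 14.0, 5.32 and 0.884 in normal HDM, at 0.255, 2.68 and 4.89 in tumour VEH and at 2.998, 3.11 and 5.49 in tumour HDM. The highest libraries were normal VEH replicate 2 and normal HDM replicate 1, and every compared pair of groups overlapped.

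The first comparison set tumours against normal lung under VEH. S100a8 and S100a9 were lower in tumours, and the other 4 neutrophil genes and the 4 ligands were not called. In bulk tissue, fewer neutrophils and less RNA per neutrophil cannot be told apart. Of the 10 genes, 2 were called at an adjusted p below 0.05, both lower, where 38.9% of all 22190 genes were called and 20.6% were called lower. The total of the members is therefore under the background, while their lower calls alone are near the share of all genes called lower. The groups did not overlap for 2 of 10, both lower, against 52.4% of all genes and 28.5% lower.

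S100a8 had a mean of 87.5 ± 139 CPM in normal VEH and 2.56 ± 0.613 in tumour VEH (SD, n = 3). The log2 fold change was -5.09 ± 1.70 (SE), with an adjusted p of 0.0369 in edgeR's quasi-likelihood test, and all 3 tumours lay below all 3 normal libraries. S100a9 went from 128 ± 197 to 4.57 ± 1.85 CPM (SD, n = 3), a log2 fold change of -4.81 ± 1.62 (SE) with an adjusted p of 0.0380 in the same edgeR test. These sizes rest on 1 library. Without normal VEH replicate 2 the normal means were 7.36 and 14.2 CPM, the log2 fold changes were -1.52 for S100a8 and -1.64 for S100a9, and neither was called (edgeR adjusted p = 0.334 and 0.298). Without the 4 libraries of conflicting labels they were -1.51 and -1.87 (edgeR adjusted p = 0.270 and 0.223), and with the name pairs as a block -1.45 and -1.58 (edgeR adjusted p = 0.234 and 0.228). Both calls were also lost without tumour VEH replicate 1, 2 or 3 or without tumour HDM replicate 1, with log2 fold changes from -5.14 to -4.55 and adjusted p from 0.0537 to 0.116.

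Cxcr2 at -4.18 ± 1.57 and Retnlg at -4.16 ± 1.64 (log2 fold change and SE) had adjusted p of 0.0563 and 0.0659 in edgeR. Csf3r was at -2.15 ± 1.23 and Ly6g at -1.57 ± 1.52, with adjusted p of 0.180 and 0.421. Of the ligands, Cxcl3 was at 1.79 ± 1.19, Cxcl2 at 0.24 ± 1.26, Cxcl1 at -1.12 ± 1.06 and Cxcl5 at -1.19 ± 1.38, with adjusted p from 0.243 to 0.891. The median over the 6 neutrophil genes was -4.17 and over the 4 ligands -0.44, against -0.11 over all genes. Without normal VEH replicate 2, Csf3r (0.80), Ly6g (1.90), Cxcl1 (1.88) and Cxcl5 (2.26) changed sign, and Cxcl1 was then called higher in tumours (edgeR adjusted p = 0.0487). Cxcr2 was called without normal VEH replicate 3, normal HDM replicate 1 or normal HDM replicate 3. The Wald test of DESeq2 called 4 members, all lower: S100a8, S100a9, Cxcr2 and Retnlg.

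**Figure D2:**
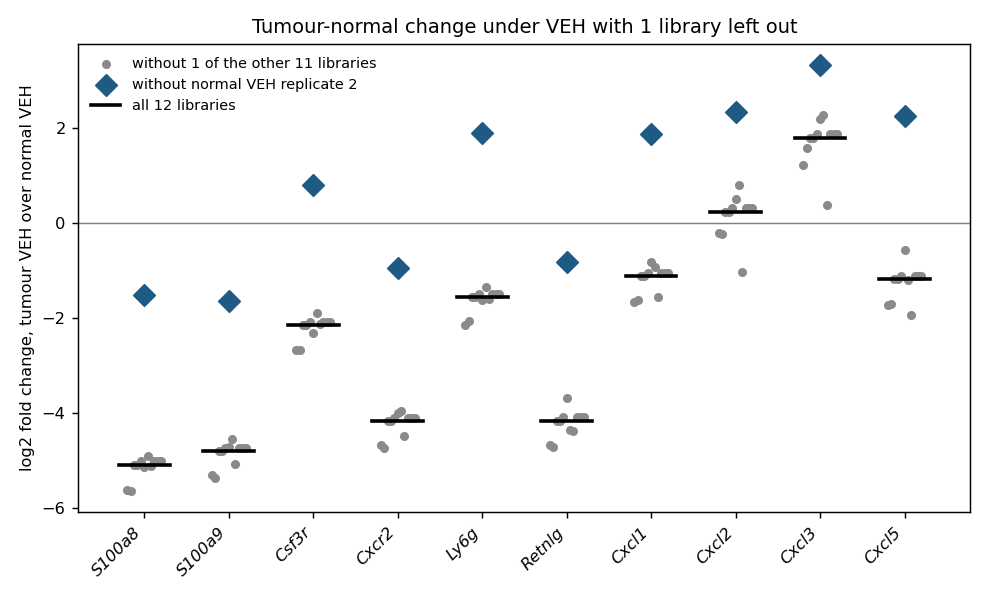
Log2 fold change of tumour VEH over normal VEH for each gene, with all 12 libraries (bar) and with 1 library left out (points; diamonds without normal VEH replicate 2). Leaving out that library moved S100a8 from -5.09 to -1.52 and turned Cxcl1 from -1.12 to 1.88, while the other fits stayed closer to the bar.

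The second comparison set tumours against normal lung under HDM. Cxcl2 was the 1 of 10 genes called by edgeR, higher in tumours, where 51.9% of all genes were called, 23% higher and 28.9% lower. Cxcl1, Cxcl2 and Cxcl3 did not overlap between the groups and were higher in tumours, 3 of 10, where 63.1% of all genes did not overlap and 29.6% were higher without overlap.

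Cxcl2 had a mean of 0.242 ± 0.297 CPM in normal HDM and 3.33 ± 0.933 in tumour HDM (SD, n = 3), a log2 fold change of 3.78 ± 1.46 (SE) with an adjusted p of 0.0493 in edgeR. The call was lost in 7 of 12 fits that left out 1 library: normal VEH replicate 1, normal HDM replicate 2 or 3, tumour VEH replicate 1, or any of the 3 tumour HDM libraries. Over all 12 such fits its log2 fold change stayed between 3.28 and 5.39. Cxcl1 had means of 1.75 ± 0.835 CPM in normal HDM and 10.99 ± 5.61 in tumour HDM (SD, n = 3), a log2 fold change of 2.65 ± 1.11 (SE), and with an edgeR adjusted p of 0.0665 it was not called. Cxcl3 was at 2.64 ± 1.23 (SE), adjusted p 0.0953. Cxcl5 was at -0.80 ± 1.36, adjusted p 0.647.

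The neutrophil genes all had values below 0 in this comparison, from -3.39 for Retnlg to -1.40 for Csf3r, with edgeR adjusted p from 0.0939 to 0.412. S100a8 was at -2.89 ± 1.52 and S100a9 at -2.89 ± 1.47 (log2 fold change and SE). Without normal HDM replicate 1, S100a8 was at -0.73, S100a9 at -0.83, Cxcr2 at -0.70 and Retnlg at -1.30, Csf3r and Ly6g turned to 0.48 and 0.64, and Cxcl5 turned to 0.32. Cxcl1 (3.07), Cxcl2 (5.39) and Cxcl3 (2.96) were higher still without it. Without the 4 libraries whose names join different treatments, 5 members were called, S100a8, S100a9, Cxcr2 and Retnlg lower and Cxcl1 higher, and Cxcl2 was at 3.22 with an edgeR adjusted p of 0.0686. With the name pairs as a block 6 were called, S100a8 (-3.82), S100a9 (-3.68), Cxcr2 (-3.01) and Retnlg (-4.59) lower and Cxcl1 (1.78) and Cxcl2 (3.82) higher. DESeq2 called 5: Cxcr2 and Retnlg lower, and Cxcl1, Cxcl2 and Cxcl3 higher. Leaving out a VEH library also moved calls here: Cxcl1 was called without normal VEH replicate 1, 2 or 3, Cxcl3 without replicate 1, and Cxcr2 and Retnlg without replicate 2. The tumour-normal comparisons under VEH and HDM share no library with each other, but each shares its libraries with the comparisons of HDM against VEH.

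**Figure D3:**
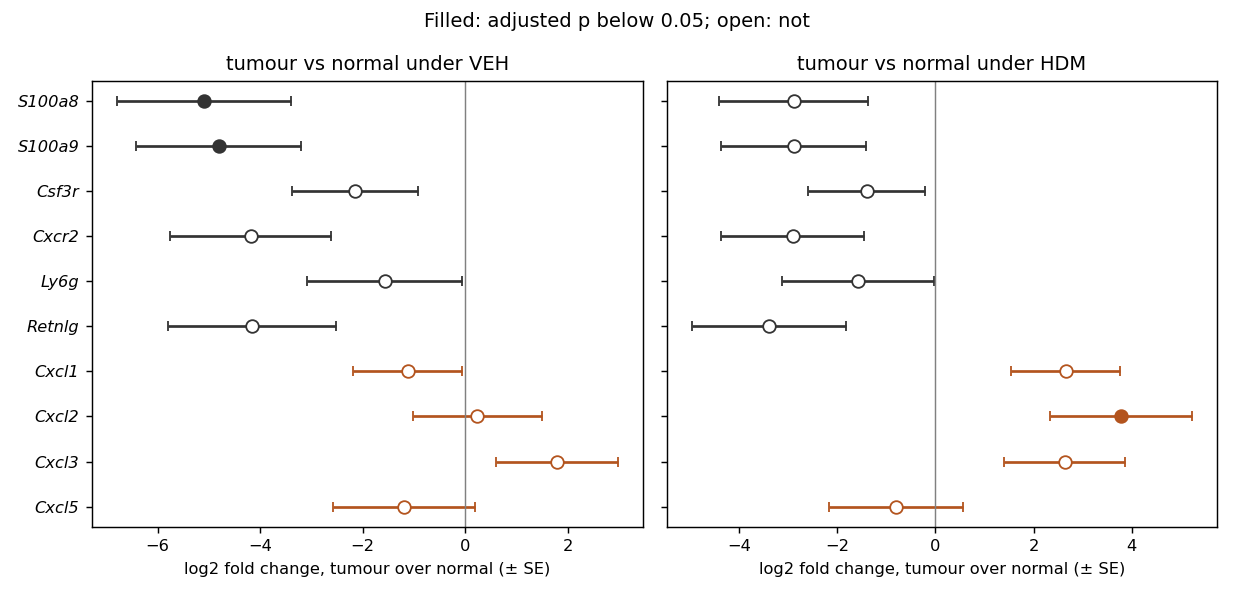
Log2 fold change of tumour over normal with its SE for each gene under VEH (left) and HDM (right), filled where the adjusted p was below 0.05. The neutrophil genes (dark) lie below 0 on both sides, and S100a8, S100a9 (VEH) and Cxcl2 (HDM) are filled.

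The next comparisons set HDM against VEH. In normal lung edgeR called 0 of the 10 genes and 0% of all genes, 0 members had an unadjusted p below 0.05, and DESeq2 called 0 members. No member was without overlap between these groups, against 10.3% of all genes (4.47% higher and 5.85% lower). Cxcl2 was furthest from 0, at -3.03 ± 1.43 (log2 fold change and SE, edgeR adjusted p = 0.887), and the neutrophil genes lay between -0.62 and 0.27. These values turned on 1 library each: S100a8 was at 3.12 without normal VEH replicate 2 and at -2.62 without normal HDM replicate 1. Without the 4 libraries of conflicting labels it was at 3.69 and Cxcl2 at -0.32 (edgeR adjusted p = 0.273 and 0.950).

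In tumours edgeR called 0 of 10 members, 0 had an unadjusted p below 0.05 and DESeq2 called 0, where edgeR called 0.0946% of all genes (0.00901% higher and 0.0856% lower). Of the 10 log2 fold changes, 9 were above 0, and with the name pairs as a block the same 9 were below 0, from -3.60 to -0.98. Without the 4 libraries of conflicting labels Cxcl1 was at 2.38 and Cxcr2 at 1.71, and Retnlg turned to -0.98. Cxcl1 (1.99 ± 1.08, adjusted p 0.379) and Cxcr2 (1.55 ± 1.46, adjusted p 0.624) were higher in all 3 HDM tumours than in all 3 VEH tumours, 2 of 10 genes, against 11.3% of all genes (22% in either direction). Ly6g, at -0.63 ± 1.57, was the gene below 0.

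The interaction asks whether the tumour-normal difference changed with HDM. None of the 10 genes was called by edgeR, nor any gene of the table (0%), and DESeq2 called 0 members. At an unadjusted p below 0.05 there was 1, Cxcl1, at 3.78 ± 1.53 (log2 fold change and SE, edgeR adjusted p = 0.512). Cxcl2 was at 3.54 ± 1.89 and S100a8 at 2.21 ± 2.06. Without the 4 libraries of conflicting labels these were 0.86 for Cxcl1, 2.12 for Cxcl2 and -2.95 for S100a8, none called (edgeR adjusted p from 0.472 to 0.716). A difference between the treatments in how these genes stand in tumours was thus not shown.

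Within the 6 pairs of libraries joined by name, S100a8 and S100a9 were lower in the tumour in 6 of 6, with differences in log2 CPM from -5.92 to -0.88 and from -5.95 to -0.54. Cxcr2 and Retnlg were lower in 5 of 6. Cxcl3 was higher in the tumour in 6 of 6, though by only 0.012 in the smallest case, and Cxcl1 in 5 of 6. The other 4 genes went both ways. Csf3r was higher in 4 and lower in 2, Cxcl5 higher in 2 and lower in 4, and Ly6g higher in 3 and lower in 3. Cxcl2 was higher in 4 and lower in 2, with differences from -1.15 to 6.11. The same counts were not made over all genes.

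By Pearson r the neutrophil genes varied together over all libraries, and less so in tumours, above all for Ly6g and for Retnlg with some genes. Pearson r of log2 CPM over the 12 libraries ran from 0.616 to 0.992 for the 15 pairs of neutrophil genes (median 0.885), with the highest for S100a8 and S100a9 (Spearman rho 0.965). In the 6 normal libraries alone these pairs ran from 0.885 to 0.992, and in the 6 tumours from -0.529 to 0.974 (median 0.55). The r of Ly6g with each of the other 5 was below 0 in tumours. Over the 12 libraries its Spearman rho was 0.182 with S100a8, 0.147 with S100a9, 0.224 with Retnlg, 0.294 with Cxcr2 and 0.573 with Csf3r. Retnlg in tumours had an r of 0.206 with Csf3r, 0.253 with Cxcr2, 0.55 with S100a8 and 0.621 with S100a9. Pearson r over the 12 libraries ran from 0.349 to 0.816 for the 6 pairs of ligands and from -0.157 to 0.728 for the 24 pairs of a neutrophil gene and a ligand. In the 6 normal libraries alone, neutrophil genes and ligands also went together (median r 0.824), and in the 6 tumours less so (median r 0.329). The points share tissue, depth and the pair of high libraries, so these are descriptions.

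The mean log2 CPM of the 4 ligands minus that of the 6 neutrophil genes lay between -4.47 and -1.44 in the normal libraries and between -0.57 and 1.94 in the tumours, with no overlap. Both sets were chosen with these levels known, and no background was taken for such a difference. Among single genes, 52.4% under VEH and 63.1% under HDM did not overlap between tumour and normal, with 3 libraries a side. The summed CPM of the neutrophil genes over that of the ligands was 7.13 to 31.1 in normal lung and 0.507 to 3.28 in tumours. In tumour VEH replicate 3 and tumour HDM replicate 3 the 4 ligands together had a higher CPM than the 6 neutrophil genes.

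**Figure D4:**
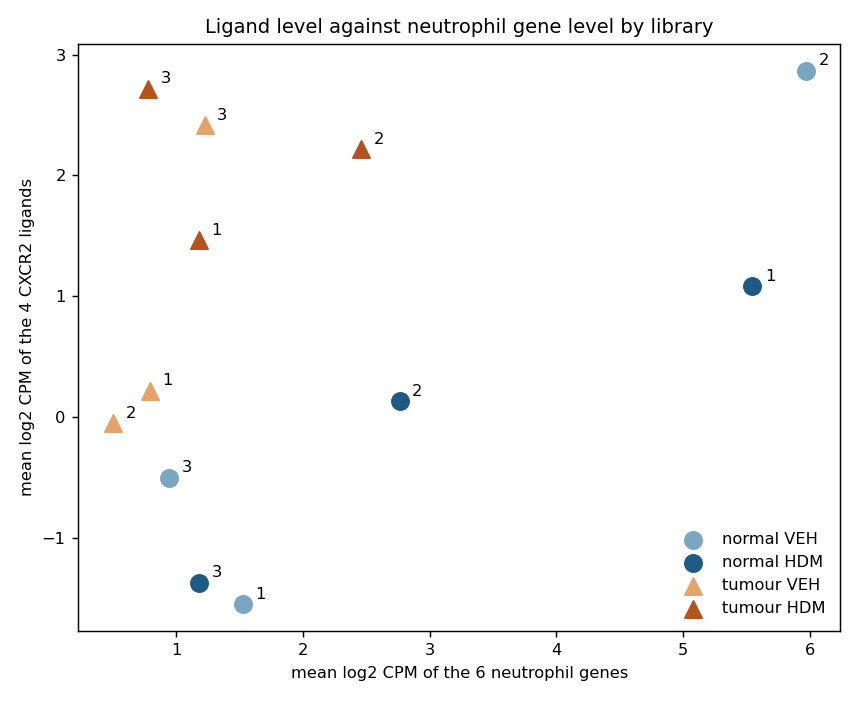
Mean log2 CPM of the 4 ligands against that of the 6 neutrophil genes in each of the 12 libraries, with replicate numbers. Among normal libraries (circles) the highest on both axes is normal VEH replicate 2, and the tumours (triangles) have neutrophil means from 0.501 to 2.46, a range that holds 3 of the 6 normal libraries, and ligand means up to 2.72.

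Markers of other cells moved with these genes. The 8 alveolar macrophage genes summed to 7656 CPM in normal VEH replicate 2, 8074 in normal HDM replicate 1 and 5604 in normal HDM replicate 2, to between 240 and 368 in the other normal libraries and to between 38.3 and 195 in tumours. Their sum went with the mean of the neutrophil genes over the 12 libraries (Pearson r 0.859, Spearman rho 0.692). The 6 monocyte genes summed to between 68.2 and 337 CPM in normal lung and between 390 and 818 in tumours, and went with the ligand mean (r 0.767, rho 0.685). Fibroblast genes summed to between 786 and 3001 CPM in normal lung and between 4584 and 13300 in tumours. The other macrophage genes summed to between 637 and 2150 CPM in normal lung and between 3639 and 6376 in tumours. Both sums were higher in every tumour than in any normal library. This did not hold for each gene: Mrc1 was at 37.9 CPM in tumour VEH replicate 1 and 216 in normal VEH replicate 2. Red cell genes summed to between 954 and 3298 CPM in normal lung (954 in normal VEH replicate 2, 2697 in normal HDM replicate 1) and to between 127 and 959 in tumours (r 0.289 with the neutrophil mean, rho 0.287). The part of these cells in the results was not tested. The wider list of 12 neutrophil markers, which holds the 6 members and Cxcr1, Mmp8, Mmp9, Ngp, Camp and Ltf, summed to 87.3, 947 and 59.3 CPM in normal VEH and to 102, 524 and 321 in tumour VEH, so the groups overlapped in this sum (r 0.691 with the mean of the 6 members, rho 0.622). It was at 693, 532 and 52.1 CPM in normal HDM and at 161, 189 and 43.1 in tumour HDM. Most of the tumour VEH sum was Ltf (18.1, 441 and 244 CPM) and Mmp9 (62.7, 69.4 and 55.3). In normal VEH Ltf was at 29.5, 25.1 and 37.6 CPM and Mmp9 at 14.9, 54.7 and 2.36. The 6 members alone summed to 40.45, 799.5 and 18.61 CPM in normal VEH and to 17.55, 11.08 and 19.75 in tumour VEH.

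Of 15 granule and maturation genes of neutrophils, 10 were tested, with 0 called under VEH and 1 lower under HDM, where 38.9% and 51.9% of all genes were called. Leaving out 1 library gave 0 to 2 under VEH (2 without normal VEH replicate 2, 1 without normal VEH replicate 3, tumour VEH replicate 2 or tumour HDM replicate 3) and 1 to 2 under HDM (2 without normal HDM replicate 3 or tumour VEH replicate 2). Ngp, a granule protein of maturing neutrophils, was at 24.3 CPM in normal VEH replicate 2 and 6.23 in normal HDM replicate 1, and had 0 counts in 5 of 6 tumours. Ltf, lactoferrin, which airway glands also make, did not follow: it was at 409 CPM in normal HDM replicate 2 and 441 in tumour VEH replicate 2. The 1 called gene was Hp, haptoglobin, also made by lung epithelium, at -4.64 ± 1.04 (log2 fold change and SE, edgeR adjusted p = 0.00443). Mpo and Elane, made by neutrophil precursors, were at or below 0.410 CPM in every library and were not tested.

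Of 22 genes of mature and activated neutrophils, 6 were called under VEH (1 higher, 5 lower) and 8 under HDM (2 higher, 6 lower), with medians of -0.84 and -1.38. Over all genes 38.9% were called under VEH (18.2% higher and 20.6% lower) and 51.9% under HDM (23% higher and 28.9% lower). The totals in both directions were below these shares, while the lower calls alone were near theirs. The total under VEH was 1 without tumour VEH replicate 1 or 3 and ranged to 8. Under HDM it was 4 when replicate 2 of either HDM group was left out, 5 without tumour HDM replicate 1, and ranged to 11. Cxcr1, the sister receptor of Cxcr2, was at 39.4, 26.9 and 0.295 CPM in normal HDM and at 0.493, 0.547 and 0 in tumour HDM. It was called lower under HDM (-6.01 ± 2.06, edgeR adjusted p = 0.0317) and not under VEH (-4.73 ± 2.02, adjusted p 0.0862), while Cxcr2 was called in neither. G0s2, a lipase inhibitor that fat-storing cells also express, fell under both treatments, at -4.11 under VEH and -5.32 under HDM. Acod1, the enzyme that makes itaconate in activated myeloid cells, rose under both, at 3.59 ± 1.04 under VEH and 3.02 under HDM (SE, edgeR adjusted p = 0.0210 and 0.0308).

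Of 14 tested genes for granulocyte growth factors and the cytokines above them, 5 were called under VEH (4 higher, 1 lower) and 8 under HDM (5 higher, 3 lower), near the 38.9% and 51.9% of all genes. The VEH count was 2 without normal VEH replicate 1 or 3 or tumour VEH replicate 1, and the HDM count 5 without normal HDM replicate 2. Csf3 encodes G-CSF, the ligand of Csf3r. It was at 0.780, 4.37 and 3.03 CPM in tumour HDM and had at most 2 counts in each normal HDM library, so its mean in tumour HDM was at least 23.6-fold higher than the mean floor of 3 counts per library there. It was called in that comparison (edgeR adjusted p = 0.0188) and not under VEH (adjusted p 0.608), and the interaction was not called (adjusted p 0.480). Csf2, the gene for GM-CSF, went the other way, with at most 2 counts in each tumour HDM library, at least 17.9-fold lower than in normal HDM (adjusted p 0.00021, edgeR). Csf1 rose under both treatments, at 2.01 under VEH and 1.61 under HDM, and Tnf rose under VEH (2.31). Il17a, an upstream inducer of these ligands, had at most 2 counts in any library and was not tested.

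Of 11 genes for other CXC chemokines, scavenger receptors and the retention axis, 4 were called lower under VEH, and under HDM 8 lower and 1 higher, against 20.6% of all genes called lower under VEH and 28.9% lower and 23% higher under HDM. The VEH count was 1 without tumour VEH replicate 3, 2 without tumour VEH replicate 1 and 7 without tumour HDM replicate 3. Under HDM the count of 9 dropped to 3, 5 and 4 when replicates 1, 2 and 3 of normal HDM were left out in turn, to 4 when tumour HDM replicate 2 was, and to 5 when tumour VEH replicate 3 was. Cxcl12, which holds neutrophils in bone marrow, fell at -2.59 and -4.51. Cxcl15 (lungkine), a chemokine of lung epithelium, was at 997, 1445 and 1461 CPM in normal VEH and 187, 647 and 245 in tumour VEH, and was called lower under HDM alone (-3.77 ± 1.27, edgeR adjusted p = 0.0296; VEH -1.86, adjusted p 0.223). Ppbp, a CXCR2 ligand carried by platelets, was called lower under VEH (-3.74 ± 0.96, adjusted p 0.0128) and not under HDM (adjusted p 0.107). Ackr1, an endothelial scavenger of chemokines, had at most 3 counts in each tumour VEH library, at least 11.9-fold lower than in normal VEH (adjusted p 0.0331). Whether these differ between treatments was not called in the interaction for Cxcl15, Ppbp or Ackr1 (adjusted p 0.611 to 0.695).

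Of 10 genes for neutrophil adhesion and capture by endothelium, 4 were called under VEH, all lower, and 6 under HDM, 5 lower and 1 higher. Over all genes 38.9% were called under VEH (20.6% lower) and 51.9% under HDM (28.9% lower and 23% higher). The totals were near these shares, and the lower calls alone were above theirs. The VEH count was 2 without tumour VEH replicate 3, and the HDM count ranged down to 4 with 1 library left out. Icam1, which neutrophil integrins bind, fell at -1.58 and -3.52, and Pecam1 at -2.36 and -3.63. The 5 endothelial marker genes summed to between 1026 and 2326 CPM in normal lung and between 91.1 and 414 in tumours, and the part of endothelial content in these falls was not tested. Of 14 genes of the NF-kB response, 6 were called under VEH (2 higher, 4 lower) and 4 under HDM (1 higher, 3 lower), against 38.9% and 51.9% of all genes. The VEH count was 3 without tumour VEH replicate 1 or 3. Nfkb2 rose under both, at 1.61 and 1.22, and Zfp36, which degrades the RNA of several cytokines, fell at -1.66 and -2.00.

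Of 88 other genes with the NF-kB motif of the ligand promoters, 67 were tested. In tumours 14 of them were called higher and 12 lower under VEH (18.2% and 20.6% of all genes), and 17 higher and 18 lower under HDM (23% and 28.9% of all genes). Of the listed genes, Nfkbia, Csf1 and Il6 had it.

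The genes whose log2 CPM went most closely with the mean of the 6 neutrophil genes over the 12 libraries were Chp1 (r 0.936), Usf2, Hcst, Tmem268 and Mapkapk2 (r 0.919), out of 12610 genes searched. For Cxcl1 they were Fcna (r 0.949), Dab2, Bicd1, Htatip2 and Fam110c, for Cxcl2 Gas1 (r 0.906), Gsr, Twf1, Arg1 and Nus1, for Cxcl3 Ctnnal1 (r 0.926), Gata4, Fam91a1, Farp1 and Bnc1, and for Cxcl5 Cyb561a3 (r 0.842), Prg4, Tbc1d20, Mrc1 and Samd8. Spearman rho lay between 0.727 and 0.965 for these 25 genes.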

How the data were processed

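RNA was measured in 12 mouse lung libraries. Raw counts per gene were deposited by the authors in 1 table, with gene lengths, per the file headers. The submitters' processing notes name Trim Galore, STAR, featureCounts (Subread) and the mm39 build, and per the labels' protocols libraries were stranded (dUTP) and read from both ends. The annotation and the strand setting are not given in the sources used here. Of nonzero counts up to 20, 70.2% were even, and whether both reads of a pair were counted is not given. Of 78298 gene identifiers, 78168 occur in GENCODE M39, which gave symbols and coordinates.

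From these counts edgeR 4.0.16 (R 4.3.3) kept 22190 genes (filterByExpr, minimum count 10), scaled by TMM and fitted all 12 libraries with a coefficient per group and robust quasi-likelihood dispersions. P-values are two-sided, with Benjamini-Hochberg adjustment over all genes in each of 5 comparisons, and called means adjusted p below 0.05. The fit was tested on simulated data. A group with 3 counts or fewer in every library is treated as at the floor. Groups came from the sample titles, and all 12 libraries have the same batch label.

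The members, gene lists and tests were chosen with earlier results of these data known. All members, a few always-named genes and up to 4 called genes per list with the smallest p could be named. Same-numbered libraries did not deviate together (r from -0.355 to 0.303), so replicate numbers were not treated as pairs. Libraries joined by name did not either (r from -0.219 to 0.179), and these pairs entered only descriptions and alternative fits. Alternatives were scaling by DESeq2 size factors or by library size, other filters, the Wald test of DESeq2 1.42.0, fewer groups, blocks for replicate number or name prefix, removal of libraries, and halved counts, added after seeing the data.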

Additional observations from a re-analysis of the deposited data

How the results depend on the processing

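Of the 10 members, 2 were called in tumour against normal under VEH. That count was 0 with no filter on low counts, with the replicate block, with the prefix block and without the 4 libraries of conflicting prefix, 1 when only the compared groups were fitted and 4 with DESeq2, and from 0 to 3 when 1 library was left out. Under HDM 1 was called, against 0 with DESeq2 size factors in edgeR, with no filter and with the replicate block. It was 3 with only the compared groups, 5 with DESeq2 and without the 4 libraries, and 6 with the prefix block. Leaving out 1 library gave 0 to 4. A minimum of 10 counts in each library removed Cxcl2, the called gene, before the test, so the 0 in that fit could not have kept the call. In the other comparisons 0 members were called in every fit. Over the whole table, HDM against VEH in tumours had 21 genes called, against 17 with DESeq2 size factors, 8 with library size only, 33 with halved counts, 52 with no filter, 53 with a minimum of 10 counts in each library, 1 with the replicate block, 0 with the prefix block, with only the compared groups and without the 4 libraries, 1311 with DESeq2, and 0 to 24 with 1 library left out. DESeq2 called 43 genes for HDM against VEH in normal lung and 222 for the interaction, where edgeR called 0 (0 to 6 for the interaction with 1 library left out). Tumour against normal under VEH had 8624 genes called, against 5603 without the 4 libraries and 5733 without tumour VEH replicate 1. The causes were not tested.

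Of 462 member values in fits other than leaving out 1 library, 48 changed sign and 0 of these were called. Log2 values that changed sign were, with the replicate block, S100a8 0.25, S100a9 0.20 and Retnlg 0.85 in HDM against VEH in normal lung; Retnlg -0.70 in HDM against VEH in tumours. Further, they were Retnlg -1.55 and Cxcl5 -0.40 in the interaction. With the prefix block, in which HDM against VEH rests on the pairs of conflicting labels by construction, they were Csf3r 0.43, Ly6g 1.96, Cxcl1 1.10 and Cxcl5 0.91 in tumour against normal under VEH; Csf3r -0.069, Cxcr2 -0.92, Retnlg 0.075 and Cxcl5 -1.46 in HDM against VEH in normal lung. Further, they were S100a8 -2.62, S100a9 -2.69, Csf3r -2.38, Cxcr2 -2.92, Retnlg -3.60, Cxcl1 -0.98, Cxcl2 -2.29, Cxcl3 -2.22 and Cxcl5 -3.42 in HDM against VEH in tumours, then S100a8 -2.37, S100a9 -2.10, Csf3r -2.31, Cxcr2 -1.99, Retnlg -3.67, Cxcl3 -0.28 and Cxcl5 -1.96 in the interaction. Without the 4 libraries they were Csf3r 0.85, Ly6g 1.89, Cxcl1 1.47 and Cxcl5 1.54 in tumour against normal under VEH; S100a8 3.69, S100a9 3.22, Ly6g 3.43, Retnlg 3.43, Cxcl1 1.52 and Cxcl3 1.19 in HDM against VEH in normal lung. Further, they were Retnlg -0.98 in HDM against VEH in tumours, then S100a8 -2.95, S100a9 -2.52, Csf3r -2.94, Cxcr2 -2.39, Retnlg -4.41 and Cxcl5 -2.65 in the interaction. With library size only it was Ly6g 0.08 in the interaction. Of 600 values with 1 library left out, 50 changed sign and 1 of these was called (Cxcl1 under VEH). Their ranges were, for tumour against normal under VEH, Csf3r -2.68 to 0.80, Ly6g -2.14 to 1.90, Cxcl1 -1.66 to 1.88, Cxcl2 -1.03 to 2.34 and Cxcl5 -1.94 to 2.26. For tumour against normal under HDM they were Csf3r -1.82 to 0.48, Ly6g -2.18 to 0.64 and Cxcl5 -1.24 to 0.32. For HDM against VEH in normal lung they were S100a8 -2.62 to 3.12, S100a9 -2.58 to 2.66, Csf3r -1.84 to 2.98, Cxcr2 -1.93 to 3.51, Ly6g -2.84 to 2.85, Retnlg -2.53 to 2.89, Cxcl1 -2.32 to 1.22, Cxcl3 -1.29 to 0.81 and Cxcl5 -0.94 to 3.63. For HDM against VEH in tumours they were Retnlg -1.29 to 0.83, Cxcl2 -0.044 to 1.86 and Cxcl3 -0.36 to 1.62. For the interaction they were S100a8 -1.37 to 4.36, S100a9 -1.25 to 3.99, Csf3r -2.20 to 2.63, Cxcr2 -1.96 to 3.48, Ly6g -3.48 to 2.20, Retnlg -2.56 to 2.87, Cxcl3 -0.69 to 2.36 and Cxcl5 -3.06 to 1.51. 

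Depth limited Ly6g, Cxcl2 and Cxcl3, which had 0 counts in a library each. Ly6g was not tested with halved counts or with only the HDM groups. Interactions could not be fitted with only the compared groups.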
